A study of Homo sapiens with 7 samples.

Results

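The 10 genes described here encode transcription factors of the ETS family: EHF, ELF3, ELF1, ETS1, ETS2, ETV1, ETV4, ETV5, FLI1 and ELK3. They were chosen by symbol, and the list was drawn up with the KD against parent difference in these same libraries already known, so their own differences are given below as a description and carry no test. They are 10 of 57773 genes in the deposited table and 10 of its 28 human ETS genes. RNA-seq was made from MDA-MB-231, an established human triple-negative breast cancer line of mesenchymal character. The tested libraries are 2 labelled KD and the others are 3 labelled parent. KD is not spelled out. The series concerns APE1, the base excision repair endonuclease encoded by APEX1, and its contact with G-quadruplexes, folded structures of guanine-rich DNA. According to the treatment protocol, which all libraries carry, APE1-knockout triple-negative lines received wild-type or mutant APE1 under doxycycline control from a lentivirus and were kept under blasticidin, without a statement of which libraries come from such cells, of clonality or of a doxycycline dose. The 2 chromatin immunoprecipitation libraries, an input and an APE1 sample, were not analysed here. The comparison asks how transcripts differ between cells with less APEX1 transcript and the line they are set against.

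ETS factors share a DNA-binding fold, the ETS domain, which reads a GGAA core in DNA. Many of them are end points of the RAS-ERK cascade: ETS1, ETS2, the PEA3 group (ETV1, ETV4 and ETV5) and the ternary complex factors that work with SRF (ELK1, ELK3 and ELK4) are phosphorylated by ERK or its relatives. In breast cancer, ETS1 and the PEA3 group are known for transcription of matrix protease and other invasion genes, whereas EHF and ELF3 belong to an epithelium-specific group.

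APEX1 was lower in KD, at 45.8 ± 3.48 CPM against 130 ± 5.84 CPM in parent (SD, n = 2 and 3), so that the counts follow the labels. CPM is a gene's count relative to its library's total, scaled by TMM, a factor that evens out composition. Library totals were 14677006 and 15502425 counts in KD and 14601078 to 18049386 counts in parent. Markers of the mesenchymal line summed to 5775 and 5893 CPM in KD and 6651 to 7062 CPM in parent, with all 5 listed genes read. Of the luminal epithelial markers, 6 of 8 were read, PGR only by 2 counts in parent replicate 2, and ESR1 and FOXA1 were at 0. Their sum was 1087 and 1108 CPM in KD against 957 to 969 CPM in parent, and KRT8 and KRT18 made up most of it. Of the fibroblast markers, 4 of 5 were read, DCN was at 0, and the sum was 84.0 and 98.2 CPM in KD against 50.7 to 71.9 CPM in parent. PDGFRB and COL1A1 made up nearly all of it, at 65.7 and 24.7 CPM in KD and 38.1 and 20.7 CPM in parent. COL1A2 and LUM were below 1 CPM in each library. Of the blood markers, 1 of 5 was read, PTPRC, CD3E and LYZ were at 0, and CD14 made up the sum of 4.61 and 5.62 CPM in KD and 6.87 to 9.84 CPM in parent. Of 4 endothelial markers VWF was at 0, and ROBO4 made up nearly all of the sum of 78.3 and 85.1 CPM in KD and 73.4 to 90.0 CPM in parent. These sums moved with the groups for some lists, and their part in the ETS values was not tested. In bulk RNA, a change in the share of cells and a change in RNA per cell cannot be told apart.

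Because the series is about G-quadruplex DNA, and because EHF and ELF3 differed in opposite directions, the sequences before their starts are shown first. RefSeq promoter windows on GRCh38.p14 were found for 6 of the 10 genes (EHF, ELF3, ELF1, ETS2, ETV1 and ELK3), with 16 starts among them, and the 250 bases before each start were read. Several of the 6 ETV1 windows overlap. The windows for EHF at chr11:34624007-34624256 (plus strand) and ELF3 at chr1:202010337-202010586 (plus strand) follow 5′ to 3′, with the ETS core GGAA, or TTCC where it lies on the other strand, in capitals. The ELK3 window at chr12:96194125-96194374 (plus strand) has in capitals the bases that match a G-quadruplex motif, 4 runs of at least 3 guanines with 1 to 7 bases between them.
EHF: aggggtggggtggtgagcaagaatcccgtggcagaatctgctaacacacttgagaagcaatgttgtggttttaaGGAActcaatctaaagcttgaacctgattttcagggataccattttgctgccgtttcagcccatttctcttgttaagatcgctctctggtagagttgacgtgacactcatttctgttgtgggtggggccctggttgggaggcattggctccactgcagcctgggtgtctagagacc
ELF3: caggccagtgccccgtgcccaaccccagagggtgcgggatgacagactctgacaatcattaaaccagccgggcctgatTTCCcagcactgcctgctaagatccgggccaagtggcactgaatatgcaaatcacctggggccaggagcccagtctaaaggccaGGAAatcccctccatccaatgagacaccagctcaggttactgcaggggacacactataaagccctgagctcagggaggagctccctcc
ELK3: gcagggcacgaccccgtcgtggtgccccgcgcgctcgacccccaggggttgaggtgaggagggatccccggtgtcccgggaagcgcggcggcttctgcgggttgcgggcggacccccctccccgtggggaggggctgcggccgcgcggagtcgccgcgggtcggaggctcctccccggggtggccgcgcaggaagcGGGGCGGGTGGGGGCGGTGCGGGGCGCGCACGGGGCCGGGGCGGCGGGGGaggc

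The EHF window held 1 GGAA core and the ELF3 window 2, on either strand, against a median of 3 over 35116 promoter windows of the same length, of which 92.7% held at least 1. A second EHF window, at chr11:34632316-34632565, held 0. The G-quadruplex motif was matched on either strand in 4 of the 16 windows, against 23.5% of all windows. These 4 belong to ELK3 (both starts), ELF1 (1 of 3) and ETS2 (1 of 2). Neither EHF window, nor the ELF3 window, nor any of the 6 ETV1 windows held these letters. The AP-1 motif TGANTCA was in 0 of the 16 windows, against 6.6% of all. A match is a description of letters, and which start the cells used is not known from gene counts.

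EHF and ELF3 are close relatives that act in epithelia, and they were the members with the widest differences, in opposite directions. In KD replicates 1 and 2, EHF (ENSG00000135373) had 499 and 488 counts, whereas parent replicates 1, 2 and 3 had 2425, 2266 and 2806 counts. ELF3 (ENSG00000163435) had 389 and 348 counts in KD, against 141, 114 and 117 counts in parent. For each gene the KD libraries lay outside the range of the parent libraries, EHF below it and ELF3 above it. In CPM the groups likewise did not overlap for 51.4% of all genes tested. EHF averaged 32.5 ± 1.78 CPM in KD and 155 ± 1.13 CPM in parent, a log2 fold change of -2.26 ± 0.0589 (SE) or 4.78-fold lower. ELF3 averaged 24.3 ± 2.85 CPM in KD and 7.78 ± 1.23 CPM in parent, a log2 fold change of 1.65 ± 0.148 (SE) or 3.13-fold higher. Set against each other within a library, which needs no scaling factor, there were 1.28 and 1.40 EHF counts per ELF3 count in KD, against 17.2, 19.9 and 24.0 in parent. Fold changes here are KD over parent from the edgeR quasi-likelihood model, with SD over 2 KD and 3 parent libraries throughout.

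**Figure D1:**
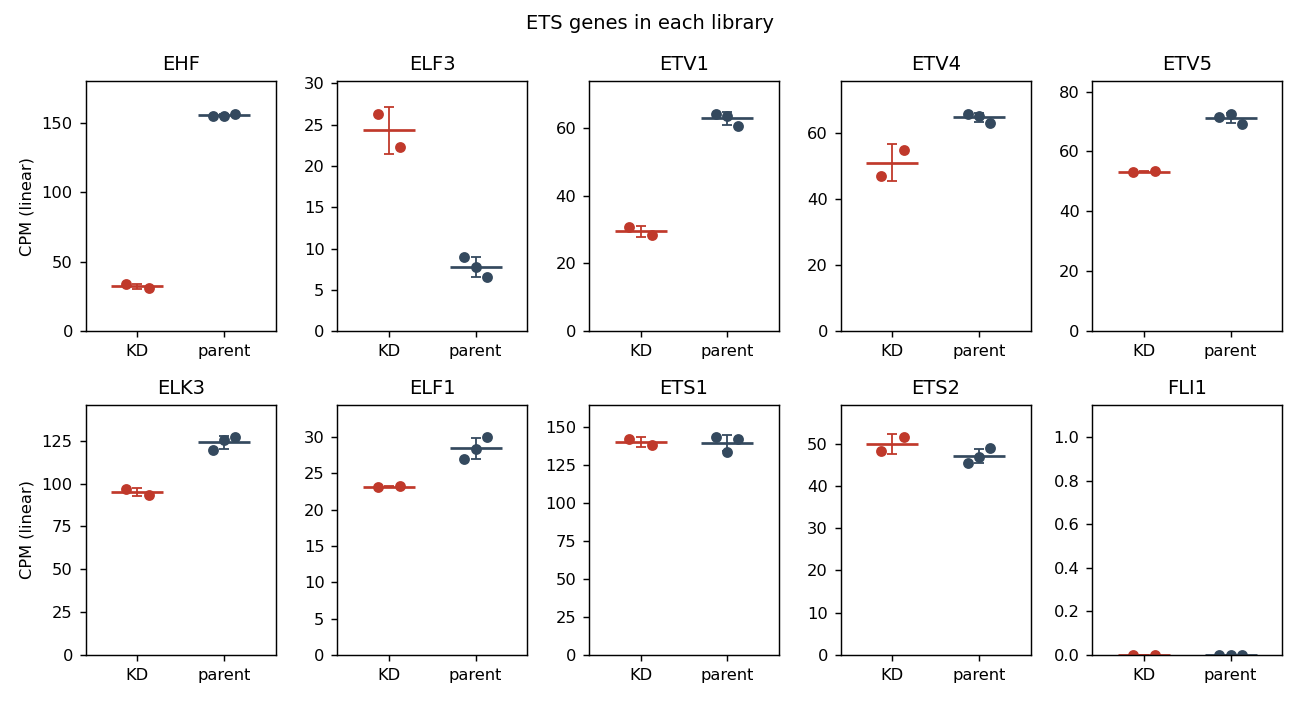
Level of the 10 ETS genes in each library, in CPM on linear axes from 0. Points are libraries (KD at left in red, parent at right in grey-blue), horizontal bars are means and whiskers SD. EHF and ELF3 separate in opposite directions, ETS1 and ETS2 overlap, and FLI1 is at 0 throughout.

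The PEA3 group, whose members are transcribed downstream of ERK and held down by the repressor CIC, was lower in KD as a group, most of all ETV1. ETV1 (ENSG00000006468) had 453 and 443 counts in KD, against 1004, 931 and 1082 counts in parent. ETV4 (ENSG00000175832) had 695 and 858 counts in KD, against 1033, 956 and 1132 counts in parent. ETV5 (ENSG00000244405) had 784 and 835 counts in KD, against 1118, 1063 and 1240 counts in parent. In CPM none of the 3 genes overlapped between groups, as for 51.4% of all genes tested, although the KD libraries of ETV4 lay apart, at 47.1 and 55.0 CPM. ETV1 averaged 29.5 ± 1.61 CPM in KD and 62.7 ± 1.98 CPM in parent (log2 fold change -1.09 ± 0.0717, SE). ETV4 averaged 51.0 ± 5.61 CPM in KD and 64.8 ± 1.42 CPM in parent (-0.35 ± 0.0823). ETV5 averaged 53.3 ± 0.305 CPM in KD and 71.1 ± 1.68 CPM in parent (-0.42 ± 0.0604). ETV1 was thus 2.12-fold lower, and the other two 1.27-fold and 1.33-fold lower. Summed, the 3 genes held 131 and 137 CPM in KD, against 202, 202 and 193 CPM in parent. The deposited counts do not say how strand was used, and ETV5-AS1, the antisense neighbour of ETV5, was at 0 in each library.

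ELK3, a ternary complex factor that represses SRF targets until ERK converts it to an activator, was modestly lower. ELK3 (ENSG00000111145) had 1430 and 1460 counts in KD, against 1877, 1833 and 2273 counts in parent. It stood at 95.2 ± 2.30 CPM in KD and 124 ± 3.70 CPM in parent, with a log2 fold change of -0.38 ± 0.0524 (SE). ELF1, a factor best known from lymphocytes and present in many tissues, differed by less. ELF1 (ENSG00000120690) had 342 and 362 counts in KD, against 423, 416 and 536 counts in parent. In CPM it was 23.2 ± 0.0310 in KD and 28.5 ± 1.47 in parent, with a log2 fold change of -0.30 ± 0.0709 (SE). For both genes the KD libraries lay below all parent libraries, while the groups did not overlap in CPM for 51.4% of all genes tested.

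ETS1 and ETS2, the founding members of the family and direct targets of ERK phosphorylation, did not separate the groups. ETS1 (ENSG00000134954) had 142 and 138 CPM in KD, against 143, 133 and 142 CPM in parent, so that the KD libraries lay within the parent range. The log2 fold change was 0.0045 ± 0.0522 (SE), from 2098 and 2150 counts in KD and 1953 to 2541 counts in parent. ETS2 (ENSG00000157557) had 48.2 and 51.5 CPM in KD, against 45.5, 46.9 and 49.0 CPM in parent. Its groups overlapped as well, with a log2 fold change of 0.08 ± 0.0686 (SE). FLI1 (ENSG00000151702), a factor of blood and endothelial cells, was listed at 0 counts in each of the 5 libraries. With 3 counts as the limit that a count of 0 allows, a level of up to 0.168 to 0.205 CPM in a library could have been missed, for counting error only. FLI1 failed the filter on low counts and has no fold change.

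Of the 10 members, 9 passed that filter, and 7 of these had an adjusted p under 0.05 in the edgeR fit, 1 higher and 6 lower in KD. Across all 16198 genes tested the share past the threshold was 21.5%, with 9.15% higher and 12.4% lower. The KD and parent libraries did not overlap in CPM for 7 of the 9 members and for 51.4% of all genes tested. Since the members were picked with this contrast known, nothing is read from these counts. The median log2 fold change of the 9 members was -0.35, against 0.0008 over all genes tested. Without KD replicate 1 the number past the threshold was 5, and without parent replicate 2 it was also 5, in both cases because ETV4 and ELF1 dropped out. The authors' deposited table gives log2 fold changes of -2.27 for EHF, 1.64 for ELF3, -1.10 for ETV1 and -0.0057 for ETS1, and lists FLI1 with a mean of 0. In it ELF1, at -0.31, did not pass an adjusted p of 0.05, unlike in the edgeR fit.

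Among the remaining ETS genes, which complete the family, 1 passed the threshold. Of these 18 genes, 9 were tested, 7 were at 0 in each library (ERG, FEV, ETV3L, SPDEF, SPI1, SPIC and ELF5), and ETV2 and SPIB were read below 1 CPM. ELK4, a ternary complex factor like ELK3, was the 1 of 9 past the threshold, against 21.5% of all genes. It had 66.1 and 70.2 CPM in KD, against 80.4, 90.2 and 95.8 CPM in parent, with a log2 fold change of -0.38 ± 0.0863 (SE, edgeR adjusted p = 0.0219). The call on ELK4 was lost without KD replicate 1 (adjusted p = 0.127), KD replicate 2 (0.0637) or parent replicate 2 (0.0796), within 0.00413 to 0.127 over all alternatives run with edgeR or DESeq2. The other 8 tested genes did not pass. ELK1, the third ternary complex factor, stood at 111 ± 6.63 CPM in KD and 103 ± 6.46 CPM in parent (adjusted p = 0.308, edgeR). The log2 fold changes were 0.13 ± 0.0761 for ELF4, 0.04 ± 0.0681 for ELF2 and 0.35 ± 0.231 for the low-count ETV7. GABPA, which drives housekeeping and mitochondrial genes, had a log2 fold change of -0.0002 ± 0.0623. The repressors ETV6, ETV3 and ERF had -0.16 ± 0.0987, -0.09 ± 0.0697 and -0.07 ± 0.0803. The median of the 9 genes was -0.0002, beside -0.35 for the members. Since the members were set apart by their values, this gap is a description.

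**Figure D2:**
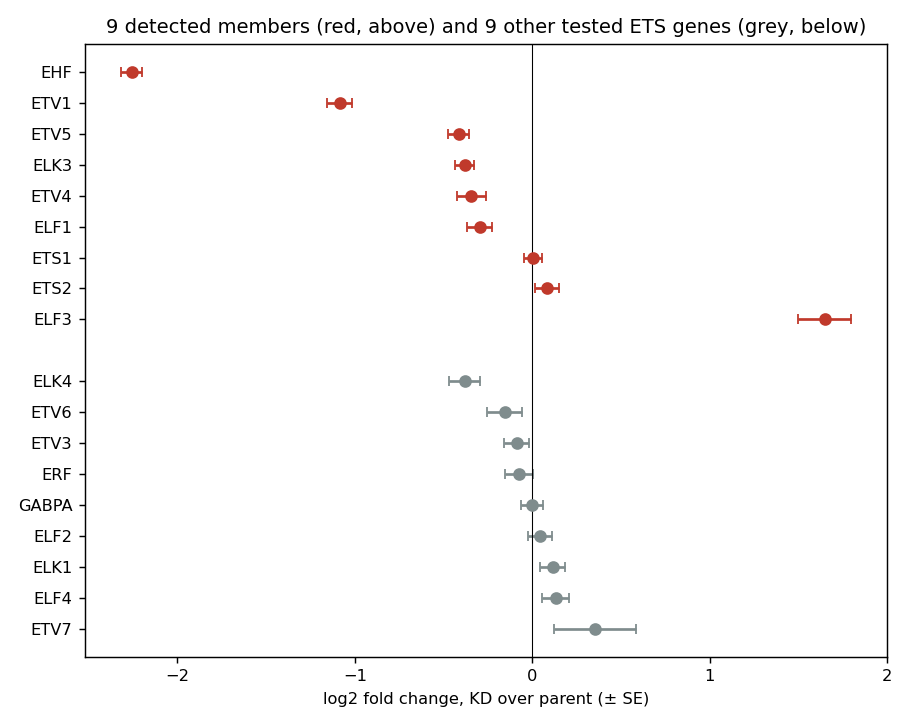
Log2 fold change, KD over parent, with its standard error for the 18 tested ETS genes. Red points (top) are the 9 detected members and grey points (bottom) the 9 other genes, the line marks 0. EHF (-2.26), ETV1 (-1.09) and ELF3 (1.65) lie far from 0, and all other points lie between -0.42 and 0.35.

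Over all 28 ETS genes, the summed level was 987 and 1005 CPM in KD, against 1212, 1200 and 1230 CPM in parent. The difference of the means was -218 CPM, of which EHF alone made up -123 CPM. Without EHF the sum was still lower, at 963 ± 14.2 CPM in KD and 1059 ± 13.7 CPM in parent. These sums weigh long transcripts more than short ones, and serve only to compare libraries.

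**Figure D3:**
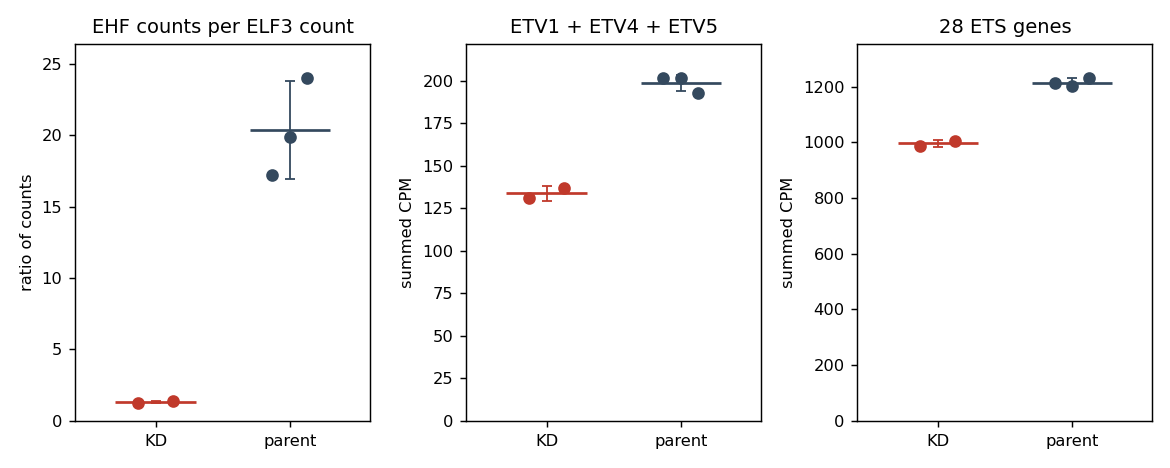
Ratio of EHF to ELF3 counts (left), summed CPM of the PEA3 genes ETV1, ETV4 and ETV5 (centre) and summed CPM of all 28 ETS genes (right), per library on linear axes from 0. KD libraries are at left in each panel and parent libraries at right, with mean and SD. The KD libraries lie below all parent libraries in each panel, the ratio at 1.28 and 1.40 against 17.2 to 24.0.

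Upstream, a share of the ERK cascade genes near that of all genes passed the threshold. Of 20 genes, all tested, 3 rose and 2 fell, where 9.15% of all genes were higher and 12.4% lower, and the median log2 fold change was -0.0039. The kinase ARAF was 1.36-fold higher, at 132 ± 5.74 CPM in KD and 96.8 ± 2.96 CPM in parent (adjusted p = 0.00206, edgeR). The adaptor SHC1 was 1.20-fold lower (edgeR adjusted p = 0.00573), the scaffold KSR1 1.53-fold higher (0.0130) and the kinase RPS6KA3 1.18-fold higher (0.0163). SHC1 lost its call without KD replicate 1 (edgeR adjusted p = 0.0584) or 2 (0.0527), within 2.28e-06 to 0.0584. KSR1 lost it without KD replicate 1 (edgeR adjusted p = 0.0850) or parent replicate 2 (0.0540), within 0.00188 to 0.0850. RPS6KA3 lost it without KD replicate 1 (edgeR adjusted p = 0.134), KD replicate 2 (0.0595) or parent replicate 2 (0.0746), within 0.0121 to 0.134. MAP2K1 and BRAF did not pass, with log2 fold changes of -0.23 ± 0.0684 and -0.23 ± 0.0819 (edgeR adjusted p = 0.0556 and 0.0975), and MAP2K1 passed without parent replicate 1 (0.0325, within 0.0325 to 0.247). The count in this list was 2 without KD replicate 1 and 3 without KD replicate 2 or parent replicate 2.

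Output genes of ERK, many of them bound by CIC or the PEA3 factors, were mostly lower in KD. Of 16 genes, all tested, 11 fell and 0 rose, and the list's median log2 fold change was -0.58, beside 12.4% of all genes lower. All lists around the ETS factors were chosen with earlier results of these data known, so their counts are a description. The feedback inhibitors of the cascade SPRY4, DUSP5 and DUSP6 were 1.76-fold, 2.51-fold and 1.84-fold lower (edgeR adjusted p = 0.000310, 0.000366 and 0.000522). PHLDA1, a gene tied to cell survival, was 1.56-fold lower (edgeR adjusted p = 0.000345). DUSP6, the phosphatase of ERK in the cytoplasm, had 27.3 and 24.9 CPM in KD, against 49.9, 48.4 and 45.4 CPM in parent. Its groups did not overlap, as for 51.4% of all genes tested. The transcription factor MAFF was 2.16-fold lower, at 28.3 ± 2.91 CPM in KD and 61.0 ± 2.57 CPM in parent (adjusted p = 0.000317, edgeR). The ephrin receptor EPHA4 and the inhibitor SPRED2 did not pass, with log2 fold changes of 0.44 ± 0.200 and -0.08 ± 0.0611 (edgeR adjusted p = 0.170 and 0.378).

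Partners and regulators of ETS proteins were called about as often as genes overall. Of 15 tested genes, 1 rose and 3 fell, where 21.5% of all genes passed in either direction, and the list's median log2 fold change was 0.03. The coactivator EP300 was 1.39-fold higher, at 84.4 ± 3.75 CPM in KD and 60.7 ± 2.61 CPM in parent (adjusted p = 0.00353, edgeR). RUNX1, a DNA-binding partner of ETS1, was 1.24-fold lower (edgeR adjusted p = 0.00503), and its subunit CBFB 1.30-fold lower (0.0236). SP100, a nuclear body protein that binds ETS1, was 1.27-fold lower (edgeR adjusted p = 0.0110). RUNX1 lost its call without KD replicate 2 (edgeR adjusted p = 0.0566, within 6.54e-05 to 0.0566), and SP100 without KD replicate 1 (0.0595) or 2 (0.0669, within 0.00877 to 0.0669). CBFB lost it without KD replicate 1 (edgeR adjusted p = 0.146), parent replicate 2 (0.0797) or parent replicate 3 (0.0573), within 0.0145 to 0.146. The count in this list was 2 without either KD library. ATXN1, the cofactor of CIC, and GABPB2, the partner subunit of GABPA, had log2 fold changes of 0.19 ± 0.0593 and 0.25 ± 0.0831 and did not pass (edgeR adjusted p = 0.0612 and 0.0771). With library totals alone ATXN1 passed (edgeR adjusted p = 0.0403), as it did without parent replicate 1 (0.0495), within 0.0403 to 0.299.

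Serum response genes, which ternary complex factors and SRF switch on, were lower where they changed. Of 13 tested genes, 6 fell and 0 rose, beside 12.4% of all genes lower and 9.15% higher, and the list's median log2 fold change was -0.55. The matricellular genes CTGF and CYR61, which are also read by YAP, were 4.73-fold and 2.74-fold lower (edgeR adjusted p = 1.17e-05 and 0.000173). EGR1, the classical target of this factor group, had 4.13 and 2.69 CPM in KD, against 15.5, 8.47 and 9.89 CPM in parent (adjusted p = 0.0102, edgeR). The stress factor ATF3 was 2.65-fold lower (edgeR adjusted p = 0.0187) and the nuclear receptor NR4A1 1.57-fold lower (0.0340). EGR1 lost its call without KD replicate 2 (edgeR adjusted p = 0.0653, within 5.27e-05 to 0.0653), and ATF3 without KD replicate 2 (0.0506) or parent replicate 2 (0.0663, within 0.00782 to 0.0663). NR4A1 lost it without KD replicate 1 (edgeR adjusted p = 0.142), KD replicate 2 (0.119), parent replicate 1 (0.0636) or parent replicate 2 (0.104). It was also lost under DESeq2 (adjusted p = 0.244), the range being 0.0331 to 0.244. BTG2 and KLF6 did not pass (edgeR adjusted p = 0.0827 and 0.0837). BTG2 was higher, at 3.62 ± 0.139 CPM in KD and 2.47 ± 0.279 CPM in parent. KLF6, at 151 ± 3.64 CPM in KD and 173 ± 12.5 CPM in parent, passed without parent replicate 3 (edgeR adjusted p = 0.0479). The count in this list was 2 without KD replicate 2 and 3 without parent replicate 2.

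Invasion genes described as ETS1 or PEA3 targets were also lower where they changed, with 1 exception. Of 23 tested genes, 12 fell and 1 rose, beside 12.4% of all genes lower and 9.15% higher, and the list's median log2 fold change was -0.44, unmoved when the 2 genes at 0 in KD are set at their bound. PLAU, the urokinase protease and a standard ETS target, had 153 and 139 CPM in KD, against 456, 434 and 409 CPM in parent. It was 2.97-fold lower (edgeR adjusted p = 4.39e-05), without overlap, as for 51.4% of all genes tested. IL8, a chemokine, was 3.27-fold lower (edgeR adjusted p = 0.000218), the tissue plasminogen activator PLAT 2.77-fold (0.000592), the heparan sulphate cleaving enzyme HPSE 1.71-fold (0.000597) and the receptor kinase MET 1.42-fold (0.000626). The collagenase MMP1 and the prostaglandin synthase PTGS2, named after their values were seen, were at 0 in both KD libraries. From 1.19 ± 0.231 and 0.835 ± 0.105 CPM in parent they were at least 12.1-fold and 8.47-fold lower, against 3 counts over the KD group and for counting error only. Both passed the low-count filter only through the parent libraries, so they could only be counted among the genes that fell. The exception was ERBB2, a receptor kinase also named afterwards, at 161 ± 6.26 CPM in KD and 133 ± 11.2 CPM in parent (adjusted p = 0.0426, edgeR). Its call was lost without KD replicate 1 (edgeR adjusted p = 0.218), KD replicate 2 (0.111), parent replicate 2 (0.109) or parent replicate 3 (0.0936). Without a low-count filter it was lost as well (0.0840), the range being 0.0150 to 0.218 (edgeR and DESeq2). The receptor gene TGFBR2, with a log2 fold change of 0.21 ± 0.0764, did not pass (edgeR adjusted p = 0.0936).

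Epithelial genes tied to EHF and ELF3 moved both ways. Of 30 listed genes, 17 were tested, of which 3 rose and 6 fell, beside 9.15% of all genes higher and 12.4% lower, and the list's median log2 fold change was -0.14. The tight junction genes CLDN4 and CLDN7 were 1.61-fold and 2.17-fold lower (edgeR adjusted p = 0.00262 and 0.00471), and the laminin chain LAMB3 2.06-fold lower (0.00297). The chemokine CCL20 had 0 counts in KD and averaged 1.36 ± 0.323 CPM in parent, which makes it at least 13.8-fold lower. It passed the low-count filter only through the parent libraries. CCL20 is counted among those that fell, but it could only come out lower, so its p-value is not given. The 3 that rose, named after their values were seen, were the adherens junction cadherin CDH1 (2.19-fold, edgeR adjusted p = 0.00587), the mucin MUC1 (1.99-fold, 0.00806) and the keratin KRT8 (1.16-fold, 0.0125). MUC1 lost its call without KD replicate 1 (edgeR adjusted p = 0.0566, within 0.00122 to 0.0566), and KRT8 without KD replicate 1 (0.0613) or 2 (0.0690, within 9.34e-06 to 0.0690). KRT18 and KRT7 did not pass (edgeR adjusted p = 0.0624 and 0.0666), KRT18 at 371 ± 12.6 CPM in KD and 334 ± 5.19 CPM in parent. With library totals alone both passed (edgeR adjusted p = 0.0483 and 0.0401, within 0.0465 to 0.321 and 0.0401 to 0.241), and KRT7 also without parent replicate 1 (0.0451). Of the listed genes, 9 were at 0 in each library. CDH1, KRT8, KRT18 and EPCAM are also luminal markers, whose sum was higher in KD as given above. Of these, EPCAM was lower, at 9.71 ± 1.68 CPM in KD and 12.3 ± 0.671 CPM in parent, and did not pass (adjusted p = 0.121, edgeR). The part of the luminal sum in the list was not tested.

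**Figure D4:**
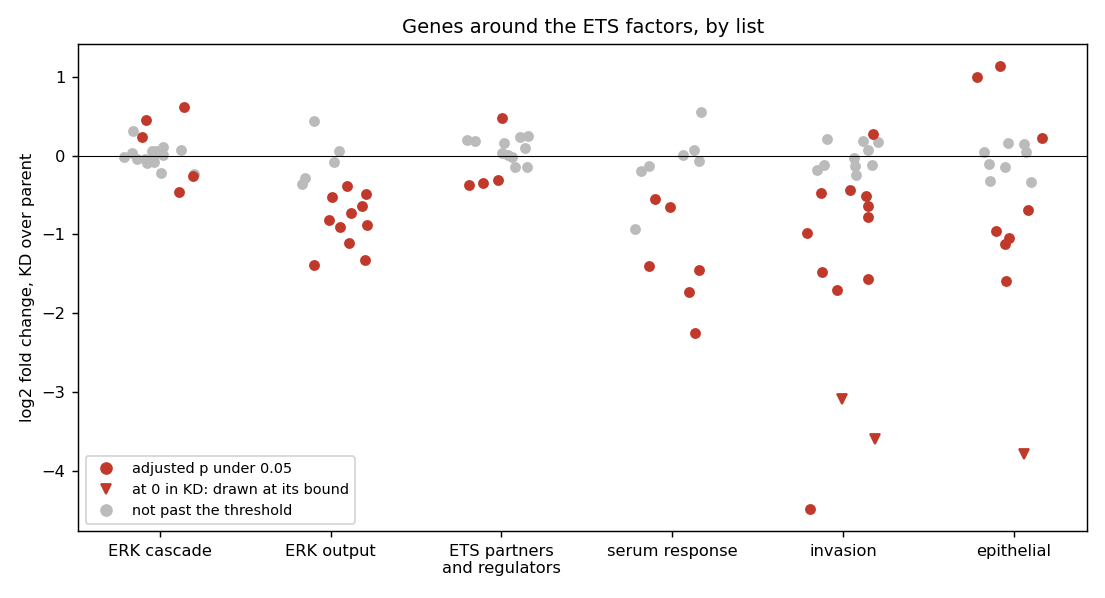
Log2 fold change, KD over parent, of the tested genes in the 6 lists around the ETS factors. Red points passed an adjusted p of 0.05, grey points did not, and triangles are genes at 0 in KD drawn at their bound. ERK output genes that passed all lie below 0 (11 of 16), whereas the ERK cascade has 3 above and 2 below.

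The genes most like each member across libraries were found by Pearson r of log2(CPM + 1) over the 5 libraries. The 9715 genes compared averaged at least 5 CPM, were not ETS genes and were kept by the form of their symbol. That rule stood in for protein-coding type. It also left out protein-coding genes whose symbol holds a hyphen or ends in P or in P and a number. For EHF these were CALB2 and NOV, for ETV1 GALNT3 and ANXA3, for ETV5 MMD and CD163L1, and for ELK3 RYK and ITSN2. For ELF3 they were CLIC3 and CHMP4B, for ELF1 CHD9 and AMOTL1, and for ETV4 DDA1 and POU6F1. For ETS2 they were COPS4 and KLHL17, and for ETS1 MINK1 and JARID2. The 5 points share 2 groups, so that r mostly follows the group difference: 1004 genes had an r above 0.95 with EHF and 952 with ETV1, against 23 with ETS1. An r says nothing of size: NOV had 1.85 CPM in KD and 14.8 CPM in parent, whereas RYK had 47.7 CPM in KD and 55.5 CPM in parent.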

How the data were processed

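RNA-seq libraries of MDA-MB-231 were compared, 2 labelled KD and 3 labelled parent, grouped by sample title. The authors deposited expected counts per gene in whole numbers. STAR, DESeq2 and hg19 are named in the submitters' processing notes, while no counting tool, annotation or strand setting is given in the sources used here. Per the file headers, the authors' comparison table holds a mean signal, log2 fold changes with standard errors, a Wald score and p-values. It was used only for the values credited to it. The transcript table was not used here, for lack of a map from transcripts to genes.

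Counts were filtered with filterByExpr (minimum count 10, minimum total 15), scaled with TMM and tested over 16198 genes with edgeR 4.0.16 in R 4.3.3 (glmQLFit, glmQLFTest, group as the only term, 3 residual degrees of freedom, Benjamini-Hochberg, threshold 0.05). The SE is the log2 fold change divided by the root of F. The code was tested on simulated data. Whether replicates are separate cultures is not stated, so p-values cover only the spread between these libraries. Floors, and the bounds drawn from them, cover counting error only.

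Alternatives were other size factors, library totals alone, no filter, DESeq2 1.42.0, a replicate block and leaving out each library. Members and gene lists were chosen with earlier results of these data known. Named genes are all members, all tested ETS genes, and in each other list up to 5 past the threshold and up to 2 others by adjusted p, plus the 2 most similar genes per member. A few genes that this rule names are not reported here. Promoter sequences and gene order are from RefSeq, GRCh38.p14, matched by symbol.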

Additional observations from a re-analysis of the deposited data

How the results depend on the processing

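The number of genes past the threshold was 3485, and ranged from 1823 to 3383 when 1 library was left out, lowest without KD replicate 1 (553 higher, 1270 lower), with 2076 without KD replicate 2 and 2029 without parent replicate 2. Of the called genes 42.5% were higher, and 30.3% were without KD replicate 1. Members past the threshold numbered 5 to 7 over the 10 alternatives. Since the members were picked with this contrast known, nothing is read from that number. ETV4 and ELF1 did not pass in every alternative. The log2 fold changes ranged from -2.32 to -2.20 for EHF, 1.52 to 1.76 for ELF3 and -1.15 to -1.03 for ETV1. They ranged from -0.43 to -0.40 for ETV5, -0.41 to -0.36 for ELK3 and -0.34 to -0.26 for ELF1. ETV4 had a log2 fold change of -0.24 without KD replicate 1 and -0.46 without KD replicate 2. No member or named gene past the threshold changed sign. With 1 library left out, counts past the threshold ranged from 0 to 1 for the other ETS genes, 2 to 6 for the ERK cascade, 2 to 5 for partners and regulators, 10 to 11 for ERK output, 12 to 13 for invasion, 6 to 10 for epithelial and 2 to 7 for serum response genes. In other alternatives these counts stayed within 1.5 times those reported. Where a KD library was left out, the lone one was assumed to vary like the parent libraries. The cause of these differences was not tested.

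The replicate numbers in the titles do not establish pairing. Over genes, the deviations of same-numbered libraries correlated at 0.139 and 0.0056, and those of KD replicate 2 and parent replicate 3 at 0.138. With 2 KD libraries, the deviations of 1 mirror those of the other, so these values cannot decide on pairing. With the replicate block, which leaves 1 residual degree of freedom, 3940 genes passed, 7 members among them. TGFBR2 (adjusted p = 0.0359), KRT18 (0.0465), ATXN1 (0.0439) and KLF6 (0.0204) passed and NR4A1 (0.0511) did not in that edgeR fit. With library totals alone, the median log2 fold change of all genes was 0.02. At this depth, a gene at 0 in a library could have been present at up to 0.168 to 0.205 CPM.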

Other observations

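Several ETS genes lie side by side in the genome, and in each such place only 1 of the pair was read in these cells. By the RefSeq order of protein-coding genes, ETS1 and FLI1 are neighbours on chromosome 11, EHF and ELF5 are neighbours on the same chromosome, and ETS2 and ERG are neighbours on chromosome 21. FLI1, ELF5 and ERG were at 0 in each library, beside 140 CPM of ETS1, 32.5 CPM of EHF and 49.9 CPM of ETS2 in KD and 139, 155 and 47.1 CPM in parent.

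Some genes next to the members passed the threshold. Of 12 tested neighbours outside the family, 3 fell and 0 rose, where 12.4% of all genes tested were lower and 9.15% higher. APIP, the neighbour of EHF on its other side, stood at 33.6 ± 1.12 CPM in KD and 30.6 ± 1.41 CPM in parent (adjusted p = 0.192, edgeR). RNPEP, next to ELF3, stood at 98.5 ± 2.62 CPM in KD and 94.0 ± 4.44 CPM in parent (adjusted p = 0.479, edgeR). DGKG, the diacylglycerol kinase gene next to ETV5, was at 0 in both KD libraries and at least 38.2-fold lower from 3.77 ± 0.554 CPM in parent. It passed the low-count filter only through the parent libraries. DGKG is counted among those that fell, but it could only come out lower, so its p-value is not given. CDK17, next to ELK3, had 32.6 ± 2.94 CPM in KD and 42.1 ± 1.35 CPM in parent (adjusted p = 0.0160, edgeR). CDK17 lost its call without KD replicate 2 (edgeR adjusted p = 0.109) or parent replicate 2 (0.0614), within 0.0159 to 0.109. The neighbours were looked up after the members' values were seen.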
